A study of Danio rerio with 6 samples.

Results

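Integrins, laminins and the proteins of focal adhesions hold cells to the matrix around them, and their transcripts were compared between zebrafish (*Danio rerio*) embryos labelled as depleted of *rapgef1b* and wild-type embryos. The genes were chosen by name: integrin alpha and beta chains, laminin alpha, beta and gamma chains, fibronectin 1, talin, kindlin (*fermt*), vinculin (*vcl*), paxillin (*pxn*), the focal adhesion kinase family (*ptk2*), *ilk* and *bcar1*. The rule used no measured value, but it was chosen with earlier results of these data known. It found 85 of the 47445 rows of the table of read counts, which carry 64 different names. One of the rows, *itgbl1*, encodes an integrin beta-like protein and not an integrin chain, and it had too few reads to be tested. RNA came from 3 samples labelled control with the genotype wild type and 3 labelled *rapgef1b* knockdown, all embryos at 1 day post-fertilisation. The labels do not name the strain, the depletion reagent, any control reagent or the number of embryos in a sample, and no statement says that samples came from separate clutches, so p-values measure the spread between these samples, which may be technical.

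Integrins are receptors made of an alpha and a beta chain that bind matrix proteins such as fibronectin and laminin. Inside the cell, talin and kindlin bind the beta chain tail and switch the receptor on, vinculin ties talin to actin, and focal adhesion kinase, paxillin and Bcar1 pass the signal on. Rapgef1 is tied to this machinery through the adaptor Crk, which binds Bcar1, and it loads Rap GTPases that act on integrins. Laminins are trimers of an alpha, a beta and a gamma chain and build basement membranes. In zebrafish the laminin chains of *lama1*, *lamb1a* and *lamc1* are needed for the notochord, and fibronectin with its receptor of the alpha 5 chain is needed at somite borders.

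Library totals ran from 2042600 to 3809123 counts, so the depth was low. The transcript of *rapgef1b* itself was not reduced under the knockdown label. It had 111, 113 and 110 CPM (read counts relative to the scaled library size) in control replicates 1, 2 and 3 and 144, 107 and 142 CPM in replicates 1, 2 and 3 labelled knockdown. The log2 fold change was 0.24 ± 0.14 (adjusted p = 0.386). Here and below, ± after a log2 fold change is its standard error, and p-values come from the quasi-likelihood test of edgeR, adjusted by Benjamini-Hochberg over 15607 genes. The groups are therefore named by their labels. Markers of muscle, epidermis, neurons, notochord, blood vessels and blood were all found, as in whole embryos, although the label of the material reads embryonic cell. In bulk samples fewer cells of a type and less RNA per cell cannot be told apart.

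Of the 85 rows, 54 had enough reads to be tested. Among these, 9 were called at an adjusted p-value under 0.05, 3 higher and 6 lower in the libraries labelled knockdown. Over all tested genes 4.29% were called, 2.01% higher and 2.27% lower. *fn1b*, *lamb1a* and *lama1*, which encode matrix ligands, were the 3 called higher. The 6 called lower were the laminin beta chains *lamb4* and *lamb2*, the integrin chains *itgb1b.1*, *itgb4* and *itgav*, and the vinculin gene *vcla*. The median log2 fold change of the 54 tested rows was -0.016, beside 0.011 over all genes, with 26 rows above 0 and 28 below. An unadjusted p-value under 0.05 was found in 17 of the 54 rows, beside 18.1% of all tested genes. The number called depended on single libraries: without control replicate 1, 2 or 3 it was 3, 1 and 4, and without replicate 3 labelled knockdown it was 5, in fits with fewer libraries. A further 31 rows were not tested, with at most 33 counts in any library, and 9 of these were at 0 in every library. Groups did not overlap in 7 tested rows that were higher and 8 that were lower, beside 23.2% of all tested genes in either direction (11.3% higher and 11.9% lower).

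**Figure D1:**
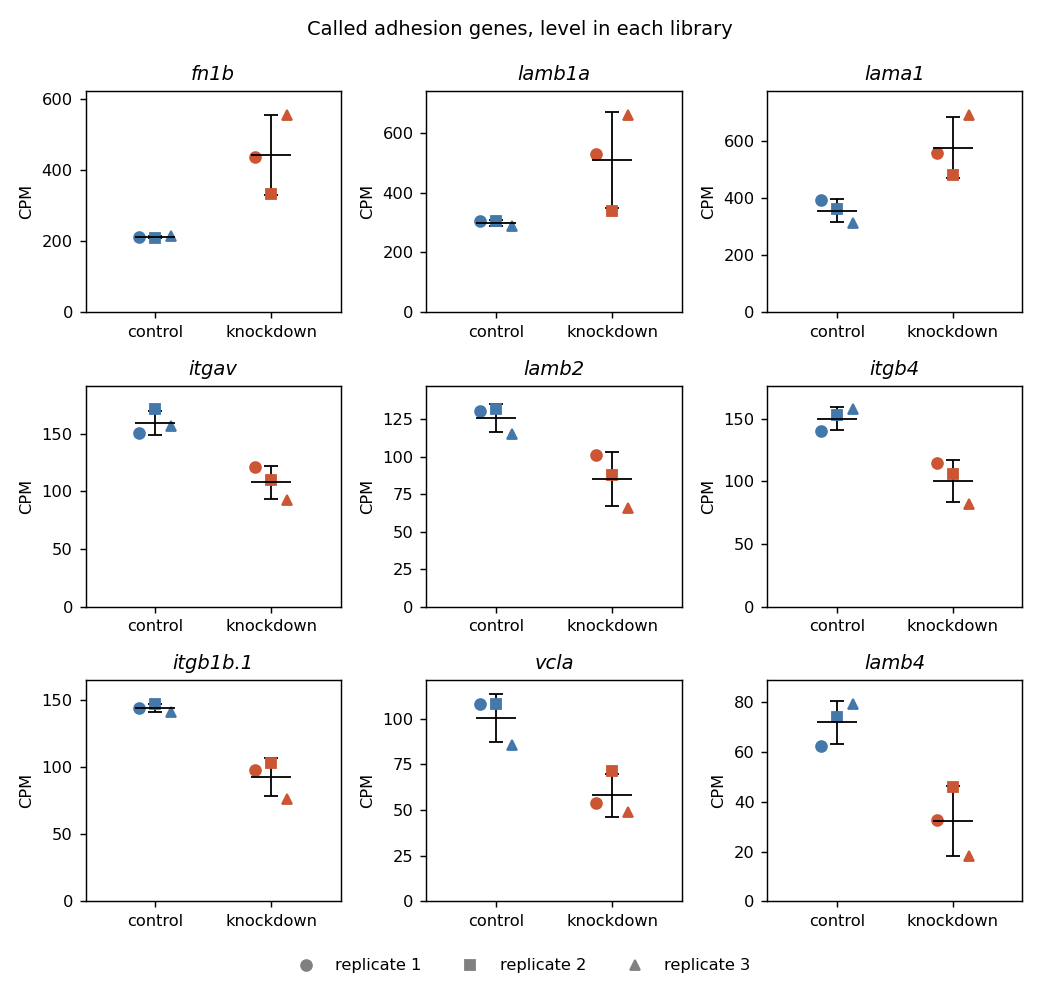
Level in CPM (vertical axes, from 0) of the 9 called genes in each library of the groups labelled control and knockdown, with each replicate as a point and the mean and SD as bars. In each panel every library labelled knockdown lies on one side of all 3 controls, and replicate 3 labelled knockdown lies farthest from them.

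Fibronectin is the ligand of alpha 5 integrin, and its *b* copy had the largest rise of the tested rows. *fn1b* had 213, 208 and 214 CPM in control replicates 1, 2 and 3. The libraries labelled knockdown had 439, 333 and 557 CPM in replicates 1, 2 and 3. All 3 were above every control, and replicate 2 rose least. The ratio of the group means was 2.09, from 212 ± 3.43 to 443 ± 112 CPM (SD, n = 3 each). The log2 fold change was 1.07 ± 0.16 (adjusted p = 0.00053). It lay between 0.86, without replicate 3 labelled knockdown, and 1.23, without replicate 2 labelled knockdown, and was called in each of the 14 alternatives. In RefSeq's GRCz12tu annotation *fn1b* overlaps *atic*, a gene of purine synthesis, and the use of strand in counting is not given in the sources used here. *atic* was called the other way, at -0.51 on the log2 scale (adjusted p = 0.0293).

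The other fibronectin copy, *fn1a*, has a pair of rows, so its reads may be split between them. *fn1a* went from 19.5 ± 7.86 to 20.3 ± 7.57 CPM and *fn1a-2* from 43.9 ± 6.66 to 40.1 ± 4.86 CPM (SD, n = 3 each). Neither was called, at adjusted p-values of 0.895 and 0.714. With its rows summed, *fn1a* had a log2 fold change of -0.071. It gave 23.8%, 22.2% and 23.1% of all fibronectin reads in control replicates 1, 2 and 3, and 12.5%, 13.1% and 11.0% in the replicates labelled knockdown. The exact Clopper-Pearson 95% intervals, which cover counting error only, ran from 19.4% to 26.9% over the controls and from 9.34% to 15.6% over the libraries labelled knockdown. The fibronectin reads thus came to a larger share from *fn1b* in every library labelled knockdown. As *fn1b* was called higher, this shift largely restates its call.

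Laminin alpha chains, which decide which receptor a trimer binds, did not move together. *lama1*, the alpha chain of the early embryonic trimer, had 393, 361 and 313 CPM in the controls against 558, 482 and 693 CPM in replicates 1, 2 and 3 labelled knockdown. The groups did not overlap, and the log2 fold change was 0.70 ± 0.15 (adjusted p = 0.0105). The call was lost without control replicate 2 or 3, at adjusted p-values of 0.0743 and 0.0806 and log2 fold changes of 0.71 and 0.61. *lama2*, the alpha chain of muscle basement membrane, went the other way without passing the test. Its control libraries had 146, 161 and 121 CPM, and replicates 1, 2 and 3 labelled knockdown had 99.2, 122 and 84.4 CPM, with replicate 2 inside the control range. Its log2 fold change was -0.49 (95% confidence interval -0.80 to -0.17; adjusted p = 0.0767), but it was called without replicate 2 labelled knockdown, at 0.0231. It was also called when no filter on low counts was set and with the replicate number as a block, at 0.0251 and 0.0399.

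*lama4*, a chain of vessel walls, and *lama5*, a chain of epithelial basement membranes, were not called. *lama4* had a log2 fold change of -0.26 (95% confidence interval -0.58 to 0.06). *lama5* had 0.10 (-0.20 to 0.39), with 288 ± 19.1 CPM in controls against 308 ± 49.4 CPM in those labelled knockdown (SD, n = 3 each). The reads of *lama1* and *lama2* can be set against each other within a library, which removes the scaling of the library. *lama1* gave 73.0%, 69.1% and 72.2% of the reads of this pair in control replicates 1, 2 and 3. It gave 84.9%, 79.7% and 89.1% in replicates 1, 2 and 3 labelled knockdown. These shares are of reads, and transcripts of unequal length give unequal reads, so they do not say which chain had more transcripts. In RefSeq's GRCz12tu annotation *lama1* and *lama2* also overlap other protein-coding genes, and the use of strand in counting is not given. Since *lama1* was called, the shift in part restates that call.

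Laminin beta chains held the most calls of any role, 3 of 6 tested rows, beside 4.29% of all tested genes. Each of the 3 calls was lost in some alternatives. *lamb1a*, the beta partner of *lama1*, had 304, 306 and 287 CPM in the controls against 529, 339 and 661 CPM in replicates 1, 2 and 3 labelled knockdown. Replicate 2 labelled knockdown lay close to the controls, and the other 2 were far above them. The log2 fold change was 0.77 ± 0.18 (adjusted p = 0.0246). The call depended on single libraries: it was lost without each of the 3 controls in turn, at 0.0979, 0.102 and 0.0915, and without replicate 1 or 3 labelled knockdown, at 0.125 and 0.0746. Leaving out replicate 2 labelled knockdown gave a log2 fold change of 0.98 (adjusted p = 0.000753), and leaving out replicate 3 gave 0.53.

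*lamb4* lies next to *lamb1a* in the RefSeq GRCz12tu gene order, with a long non-coding RNA that overlaps both between them. It had 62.2, 74.0 and 79.3 CPM in the controls against 32.8, 46.1 and 18.2 CPM in replicates 1, 2 and 3 labelled knockdown. All libraries labelled knockdown were below all controls, and replicate 3 was lowest. Its log2 fold change of -1.14 ± 0.23 (adjusted p = 0.0115) was the lowest among the called rows. The call was lost without control replicate 2, at 0.0641, and without replicate 1 labelled knockdown, at 0.0675. Of the reads of these neighbouring genes, *lamb1a* gave 83.0%, 80.5% and 78.3% in control replicates 1, 2 and 3 and 94.2%, 88.0% and 97.3% in replicates 1, 2 and 3 labelled knockdown. Both genes were called, in opposite directions, so this shift follows from their calls and is no further evidence.

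*lamb2*, the beta chain of the neuromuscular junction and of vessel walls, had 130, 132 and 115 CPM in the controls against 101, 88.0 and 65.8 CPM in those labelled knockdown. The groups did not overlap, and the log2 fold change was -0.57 ± 0.15. The adjusted p-value of 0.0382 was the one nearest to the threshold among the called rows. The call was lost with library size as the only scaling, at 0.0605, and in 5 of the 6 fits without 1 library, at 0.164, 0.183 and 0.0741 without control replicates 1, 2 and 3 and at 0.0512 and 0.131 without replicates 2 and 3 labelled knockdown. Its neighbour *lamb2l* had a log2 fold change of 0.022 (95% confidence interval -0.35 to 0.40). The *lamb1b* rows had values of -0.33 and 0.15, with adjusted p-values of 0.547 and 0.87.

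The gamma chains did not pass the test. *lamc1*, the gamma partner of *lama1* and *lamb1a*, had 608, 511 and 493 CPM in the controls against 620, 529 and 659 CPM in those labelled knockdown, with groups that overlap. Its log2 fold change was 0.16 (95% confidence interval -0.13 to 0.46). *lamc3* had -0.54 (-0.98 to -0.10) with an adjusted p-value of 0.163. *lama3*, an alpha chain of epithelial basement membranes, had at most 1 count in any library and was not tested. Of the chains of the early embryonic trimer, *lama1* and *lamb1a* therefore rose and *lamc1* was not called.

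**Figure D2:**
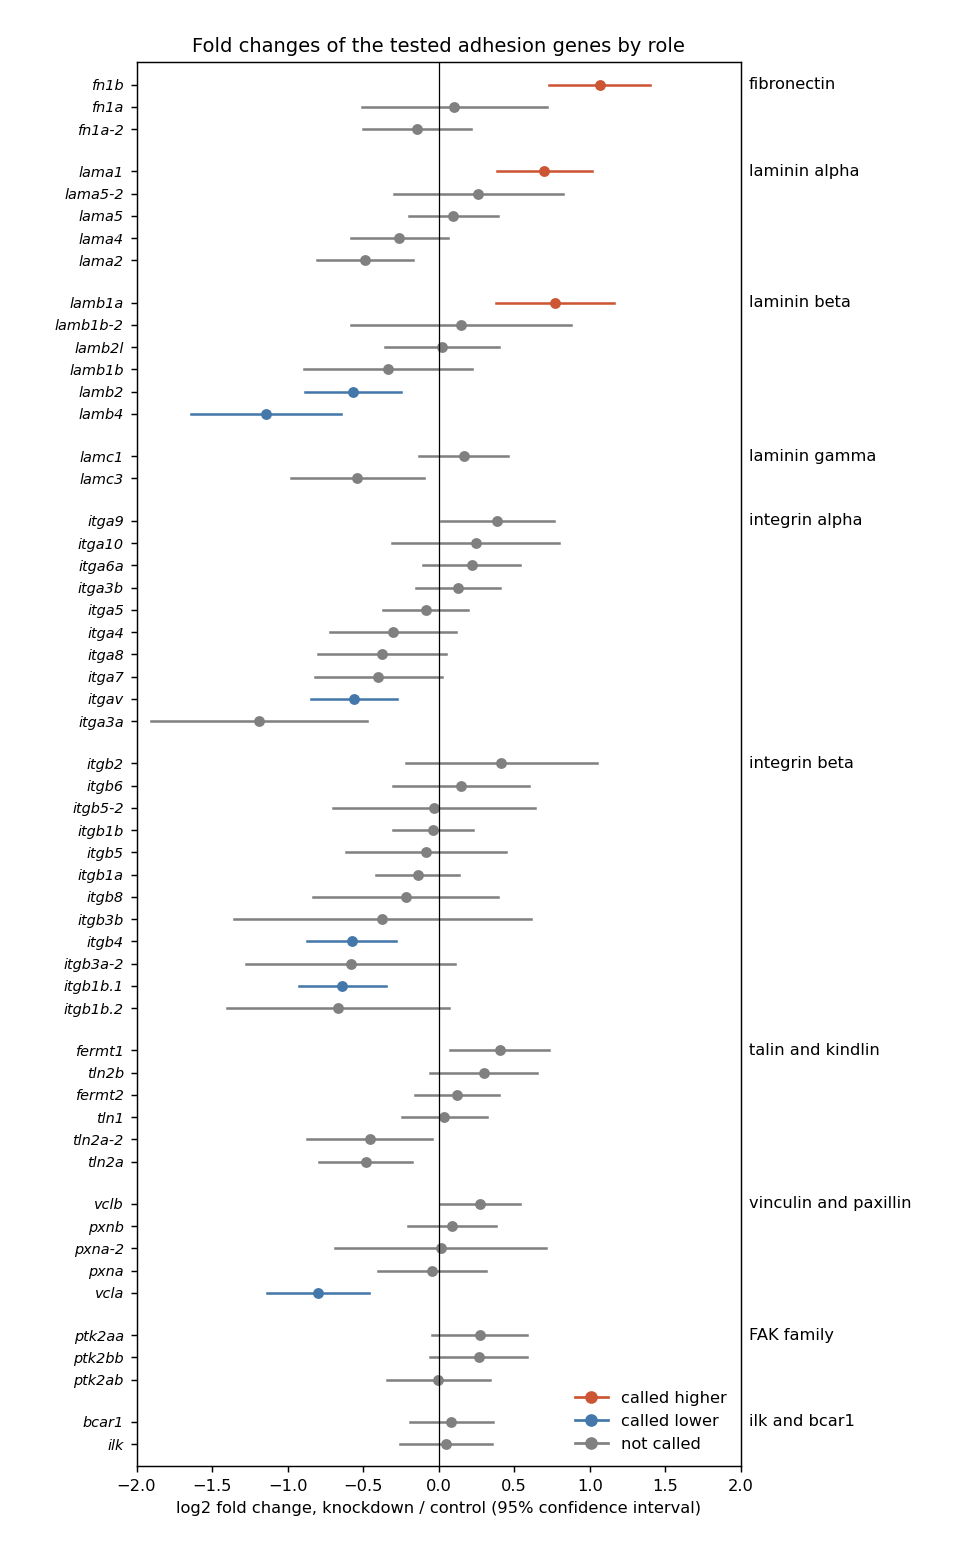
Log2 fold change (horizontal axis, libraries labelled knockdown over control) with its 95% confidence interval for the 54 tested rows, grouped by role and coloured by call. The called rows span -1.14 (*lamb4*) to 1.07 (*fn1b*), and the FAK family, talins, kindlins, *ilk* and *bcar1* hold no call.

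Of the integrin alpha chains, 10 of 29 rows were tested and 1 was called, beside 4.29% of all tested genes. *itgav*, the alpha V chain that binds vitronectin and fibronectin, had 151, 171 and 156 CPM in the controls against 121, 110 and 92.4 CPM in replicates 1, 2 and 3 labelled knockdown. The groups did not overlap, and the log2 fold change was -0.56 ± 0.14 (adjusted p = 0.0227). The call was lost without each of the 3 controls in turn, at 0.072, 0.156 and 0.0732, and without replicate 3 labelled knockdown, at 0.0725. Its log2 fold change over the alternatives stayed between -0.66 and -0.47. *itga5*, the fibronectin receptor chain of the somites, had 113, 102 and 122 CPM in control replicates 1, 2 and 3 and 115, 96.3 and 105 CPM in the replicates labelled knockdown. The groups overlapped, and the log2 fold change was -0.087 (95% confidence interval -0.37 to 0.19), so a change of the size seen for *fn1b* lay outside its interval.

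Laminin-binding alpha chains were not called. *itga3b*, needed in zebrafish fins, had a log2 fold change of 0.13 (95% confidence interval -0.15 to 0.41) and *itga6a* 0.22 (-0.11 to 0.54). *itga7*, the laminin receptor chain of muscle, had -0.40 (-0.82 to 0.02) with an adjusted p-value of 0.302. *itga3a* had the lowest log2 fold change of all tested rows, -1.19 with a standard error of 0.34, and groups that do not overlap, but its reads were few, 28 to 33 in each control and 7 to 14 in each library labelled knockdown. It was singled out after its values had been seen. The adjusted p-value was 0.0535. It was called in 4 of the 13 alternatives that tested it, among them the one with rows of a name summed, at 0.0409. The remaining tested alpha chains were *itga4*, *itga8*, *itga9* and *itga10*, and their log2 fold changes lay between -0.38 and 0.39. *itga2b*, a marker of thrombocytes, was listed at 0 in all 6 libraries, and *itga6b* had at most 6 counts.

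Integrin beta chains gave 2 calls in 12 tested rows, both lower, beside 2.27% called lower over all tested genes. The beta 1 chain, the partner of most alpha chains, is spread over 4 tested rows. *itgb1b.1* had 144, 147 and 141 CPM in the controls against 97.9, 103 and 76.5 CPM in replicates 1, 2 and 3 labelled knockdown. The controls lay close together and all libraries labelled knockdown were below them. The log2 fold change was -0.64 ± 0.14 (adjusted p = 0.0105), and the call was lost without control replicate 1 or 2, at 0.0596 and 0.0728. *itgb1b*, *itgb1b.2* and *itgb1b.1* follow each other in the RefSeq GRCz12tu gene order, and reads of such similar copies may be assigned to the wrong row, so these levels are uncertain.

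The neighbouring *itgb1b* had 120 ± 2.92 CPM in controls against 117 ± 6.75 CPM in those labelled knockdown (SD, n = 3 each). The change was -0.035 on the log2 scale (95% confidence interval -0.30 to 0.23). *itgb1b.2* had few reads and a value of -0.67 (-1.40 to 0.07). *itgb1a* had 153, 157 and 130 CPM in the controls against 145, 127 and 129 CPM in those labelled knockdown, with groups that overlap and a log2 fold change of -0.14 (-0.42 to 0.14). The difference between the changes of *itgb1b.1* and of the other beta 1 rows was not tested.

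*itgb4*, the beta chain of hemidesmosomes at the base of the epidermis, had 140, 153 and 158 CPM in the controls against 114, 106 and 81.7 CPM in replicates 1, 2 and 3 labelled knockdown. The groups did not overlap, and the log2 fold change was -0.58 ± 0.14 (adjusted p = 0.0244). The call was lost without each of the 3 controls in turn, at 0.0712, 0.13 and 0.103, and without replicate 3 labelled knockdown, at 0.0884. The epidermis and fin fold markers had a summed level of 6699 to 7705 CPM in controls against 6669 to 7802 CPM in those labelled knockdown. Here and below, marker sums add all rows of a name, also those with a suffix. Counts of tested and called markers are of the first row of each name alone. Of the 9 listed genes 8 were tested and 2 called, the fin fold genes *and1* and *and2*, both lower. *krt5* and *krt8* were higher without overlap, at 0.30 and 0.59, but not called (adjusted p = 0.242 and 0.0643). In its first row *krt4* had 2858 CPM in controls, where *tp63* had 27.2 CPM. Much of the sum came from rows with a suffix, which are not given singly. The sum therefore says little about *tp63*, which had a log2 fold change of -0.006. *itgb2*, the beta chain of leukocytes, had 7.27, 5.87 and 6.14 CPM in controls against 9.74, 8.75 and 7.47 CPM in those labelled knockdown, without overlap, but the log2 fold change of 0.41 had an adjusted p-value of 0.507. The leukocyte markers had summed levels of 128 to 142 CPM in controls against 135 to 186 CPM in the other group. Among 6 tested, *cebpa* was called higher, from 53.1 to 86.0 CPM, and *csf1ra* lower, from 20.4 to 8.96 CPM. Of the 6, *cebpa* had the highest level in both groups. Of the uncalled markers, *spi1b* and *lcp1* had log2 fold changes above 0 and *mpx* and *ptprc* below 0. The 10 beta rows that were not called lay between -0.67 and 0.41.

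On the cytoplasmic side, 1 of the 16 tested rows was called, a vinculin gene, beside 4.29% of all tested genes. *vcla* had 108, 108 and 85.4 CPM in the controls against 53.6, 71.4 and 49.0 CPM in replicates 1, 2 and 3 labelled knockdown. All libraries labelled knockdown were below all controls, and the ratio of the group means was 0.578. The log2 fold change was -0.80 ± 0.16 (adjusted p = 0.00657), and the call was lost without control replicate 1 or 2, at 0.0547 and 0.0548. Its paralog *vclb* had 167, 170 and 148 CPM in controls against 196, 188 and 203 CPM in those labelled knockdown, also without overlap but in the other direction. That difference did not pass the test, with a log2 fold change of 0.27 (95% confidence interval 0.01 to 0.54) and an adjusted p-value of 0.257. *vcla* gave 39.3%, 38.9% and 36.6% of vinculin reads in control replicates 1, 2 and 3. It gave 21.5%, 27.5% and 19.4% in replicates 1, 2 and 3 labelled knockdown. This shift largely restates the call of *vcla*.

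Talins and kindlins, the activators of integrins, held no call in 6 tested rows. *tln1* had 238, 250 and 191 CPM in controls against 233, 218 and 247 CPM in those labelled knockdown, with a log2 fold change of 0.037 (95% confidence interval -0.25 to 0.32). *fermt2* had 0.12 (-0.16 to 0.40). *fermt1*, the kindlin of epithelia, had 59.0, 53.8 and 56.8 CPM in controls against 75.3, 60.3 and 88.6 CPM in those labelled knockdown, without overlap, at 0.40 on the log2 scale (adjusted p = 0.163). The copies of talin 2 pointed in opposite directions. *tln2a*, also singled out after its values had been seen, had a log2 fold change of -0.48 (adjusted p = 0.0686) and *tln2a-2* one of -0.46 with 0.215, while *tln2b* had 0.30 with 0.376. With the *tln2a* rows summed, the log2 fold change was -0.47 and passed the test, at 0.0414. *tln2a* then gave 76.5%, 73.9% and 76.5% of talin 2 reads in controls and 62.7%, 62.8% and 67.6% in the libraries labelled knockdown. In RefSeq's GRCz12tu annotation *tln2b* overlaps other protein-coding genes, and the use of strand in counting is not given.

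The kinases and scaffolds of the focal adhesion were not called. *bcar1*, the docking protein through which Crk recruits Rapgef1, had 163, 157 and 140 CPM in controls against 183, 154 and 152 CPM in those labelled knockdown. Its log2 fold change was 0.084 (95% confidence interval -0.19 to 0.36). *ilk*, the integrin-linked pseudokinase, had 0.046 (-0.26 to 0.35). The focal adhesion kinase genes *ptk2aa* and *ptk2ab* had 0.27 (-0.04 to 0.59) and -0.002 (-0.35 to 0.34), and *ptk2bb*, a gene of the related kinase Pyk2, had 0.26 (-0.06 to 0.58). The paxillin genes *pxna* and *pxnb* had -0.043 and 0.088, with adjusted p-values of 0.93 and 0.801.

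Several genes of this group exist as an *a* and a *b* copy, and 9 such pairs had both copies tested once rows of a name were summed. The pairs were listed after the values had been seen. In 4 of the 9, fibronectin 1, vinculin, talin 2 and integrin alpha 3, the share of the *a* copy in the reads of the pair did not overlap between the groups, and it was lower in the libraries labelled knockdown in all 4. Over all 1527 such pairs in the table, the groups did not overlap in 24.2%, counted in either direction. Directions were not counted over all pairs, so the shared direction of these 4 has no background to set it against. The fibronectin and vinculin pairs each hold a called gene, *fn1b* and *vcla*, so their shifts are not separate from those calls. In the other 5, which were paxillin, focal adhesion kinase, laminin beta 1, integrin beta 1 and integrin beta 3, the groups overlapped. *pxna*, for example, gave 26.9% to 28.6% of the paxillin reads in controls and 25.2% to 26.9% in the other group.

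**Figure D3:**
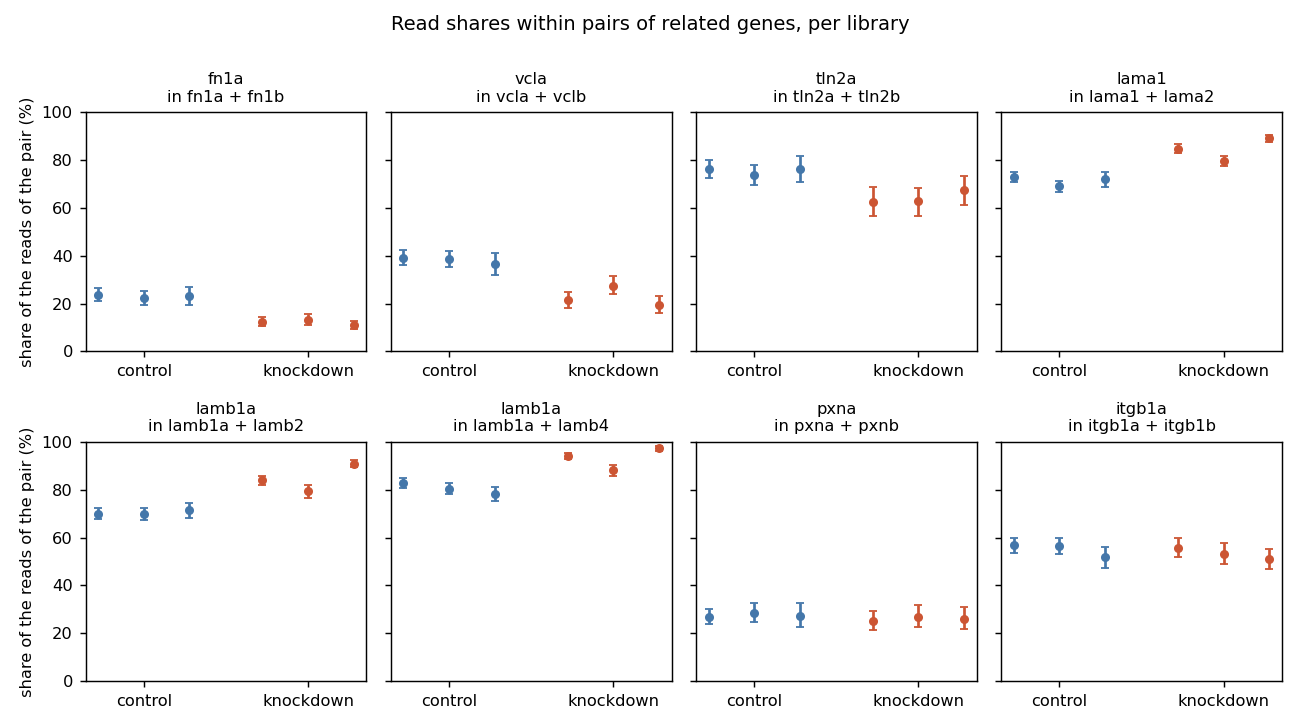
Share in percent (vertical axes) of the reads of a pair of related genes that came from the first gene, in each library (points in the order of replicates 1, 2 and 3), with exact Clopper-Pearson 95% intervals for counting error. Shares of *fn1a*, *vcla* and *tln2a* are lower and shares of *lama1* and *lamb1a* are higher in every library labelled knockdown, and those of *pxna* and *itgb1a* overlap. The *lamb1a* pairs join genes called in opposite directions, so their shifts follow from those calls. The pairs of *fn1a* and *vcla* each hold a called gene, *fn1b* and *vcla*, so their shifts largely restate its call. The *lama1* pair holds the called gene *lama1*, so its shift in part restates that call.

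The libraries labelled knockdown differed in how far they lay from the controls. Replicate 3 was the farthest in 9 of the 9 called genes, beside 68.2% of all 669 called genes. Replicate 2 was the nearest in 6 of the 9, beside 60.5% of all called genes. Of the markers of presomitic mesoderm, the unsegmented tissue at the tail end, 7 of the 8 listed genes had a row, and their summed level was 99.7, 87.1 and 108 CPM in control replicates 1, 2 and 3 and 264, 171 and 304 CPM in replicates 1, 2 and 3 labelled knockdown. Of these markers 6 were tested and 4 were called, *tbx6*, *msgn1*, *tbx16* and *cdx4*, all higher. The sum was farthest from the controls in replicate 3 and nearest in replicate 2, as were the called genes *fn1b*, *lamb1a* and *lama1*, which rose, and *lamb4*, *vcla* and *itgb1b.1*, which fell. The other 3 called genes, *itgav*, *itgb4* and *lamb2*, were nearest in replicate 1. Single markers also broke the order of the sum: *tbx6* had 125, 64.5 and 93.3 CPM and *msgn1* had 13.7, 16.6 and 36.9 CPM in replicates 1, 2 and 3 labelled knockdown. The order of the sum is not particular to this tissue. The summed lens, erythroid, notochord and neuron and neural progenitor markers, which fell, were also farthest in replicate 3 and nearest in replicate 2. The lens markers, for example, had 25.7, 39.6 and 17.3 CPM in replicates 1, 2 and 3 labelled knockdown. The muscle sum, which overlapped between the groups, was nearest in replicate 1. The part of presomitic mesoderm in the changes was not tested.

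Among markers of the other tissues, those of skeletal muscle had summed levels of 7901 to 12090 CPM in controls, over 12 of 13 listed genes. The libraries labelled knockdown had 5195 to 9405 CPM. Most of this sum came from *actc1b*, *ttn.1* and *ttn.2*. Of the 9 muscle genes tested 2 were called, both lower. Log2 fold changes were below 0 in 8 of them, 4 were lower without overlap and 6 had an unadjusted p-value under 0.05. The notochord markers went from 569 to 651 CPM down to 411 to 503 CPM, with 2 of 5 called, both lower. Most of this sum came from the matrix genes *col9a2* and *matn4*, at 254 and 245 CPM in controls. *shha* was not called, at -0.28 on the log2 scale (adjusted p = 0.687). *noto*, with too few reads to be tested, pointed up, from 2.24 to 4.58 CPM. The endothelial markers overlapped, at 279 to 308 CPM and 258 to 317 CPM, with 0 of 8 called and 3 at an unadjusted p-value under 0.05. The markers of neurons and neural progenitors had 1246 to 1435 CPM in controls against 902 to 1031 CPM. The 3 of 7 called were *sox2*, *sox3* and *gfap*, all lower, and *elavl3*, *elavl4*, *neurog1* and *stmn1b* were not called. All 7 had log2 fold changes below 0, and 6 had an unadjusted p-value under 0.05, so the calls do not set these genes apart. The lens markers had 80.5 to 89.4 CPM against 17.3 to 39.6 CPM, with 4 of 5 called, and the erythroid markers 467 to 747 CPM against 245 to 410 CPM, with 3 of 4 called, all lower. The thrombocyte markers had 182 to 222 CPM against 126 to 157 CPM, with 1 of 5 called, *thbs1b*, which is also on the list of matrix partners. Without *thbs1b* the thrombocyte sums overlapped, at 61.0 to 73.1 CPM in controls against 48.1 to 69.1 CPM. *gata1a* and *ckma*, defining genes of red cells and muscle, were at 0 in all their rows, and each has a copy row. The part of these tissues in the changes of *lama2*, *lamb2*, *lamb4* and *itgav* was not tested.

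Other genes of cell-matrix adhesion were taken from 3 lists of general knowledge, chosen with earlier results of these data known. Of the listed genes 88 were tested and 6 called. That is 6.82%, near the 4.29% over all tested genes. Without control replicate 1 or 2 or replicate 3 labelled knockdown, 3 were called. In the list of basement membrane and matrix partners, 5 of 24 tested genes were called, all lower, beside 2.27% called lower over all tested genes, and the median log2 fold change was -0.19. *bcam*, a receptor for laminin alpha 5, had 215 CPM in controls against 123 CPM in those labelled knockdown, that is -0.80 on the log2 scale (adjusted p = 0.00123). *vtnb*, a vitronectin gene and thus a ligand of alpha V integrin, had -1.12 with 0.002, while its paralog *vtna* had -0.017 with 0.979. *thbs1b*, a thrombospondin gene, had -0.73 with 0.00495. *bcam*, *vtnb* and *thbs1b* were called in each of the 14 alternatives.

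*thbs4a* and *tnc*, genes of matrix proteins found at muscle ends and tendons, fell by 1.36 and 0.75 on the log2 scale (adjusted p = 0.0244 and 0.0315). The fall of *thbs4a* does not stand for thrombospondin 4 as a whole. Its paralog *thbs4b* was not called and pointed the other way, at 0.33 on the log2 scale (adjusted p = 0.22), with groups that overlap. *thbs4b* had 88.1, 108 and 101 CPM in control replicates 1, 2 and 3, where *thbs4a* had 13.2, 11.4 and 13.3 CPM. *thbs4a* lost its call in the fits without control replicate 1, 2 or 3 or without replicate 1 or 3 labelled knockdown, at up to 0.109. *tnc* lost it under DESeq2, with its rows summed, where its value was -0.42, and without control replicate 1 or 2 or replicate 1 or 3 labelled knockdown, at up to 0.264. The structural genes of basement membranes were not called: *hspg2* (perlecan) had -0.20 and *nid1a* (nidogen) -0.39. Of the type IV collagen genes, *col4a1* and *col4a2* had -0.17 and -0.022, and *col4a6* had -0.19. *col4a5*, with 397 CPM in controls against 309 CPM in those labelled knockdown, was lower without overlap, at -0.36 (adjusted p = 0.13).

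The list of adaptors and actin linkers had 1 call in 27 tested genes, beside the same 4.29%. It was *lims1*, encoding Pinch, the partner of Ilk, with 156 CPM in controls against 224 CPM in those labelled knockdown, that is 0.53 on the log2 scale (adjusted p = 0.0242). *lims1* lost the call without each of the 3 controls in turn and without replicate 3 labelled knockdown, at up to 0.147. The other Pinch gene on the list, *lims2*, was not called and pointed the other way, without overlap. *lims2* had 28.8 CPM in controls against 19.0 CPM in those labelled knockdown, that is -0.60 on the log2 scale (adjusted p = 0.0855). The list of kinases and of Crk, Rap and Rac signalling had 0 calls by edgeR in 37 tested genes, with 3 at an unadjusted p-value under 0.05 and a median log2 fold change of 0.042. *crkl*, an adaptor that binds Rapgef1, had 0.0001 with a standard error of 0.14. *rap1b* and *rap1aa*, the GTPases that Rapgef1 acts on, had -0.32 and -0.27 with adjusted p-values of 0.212 and 0.37. *crk* has 3 rows with 1 read in all.

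**Figure D4:**
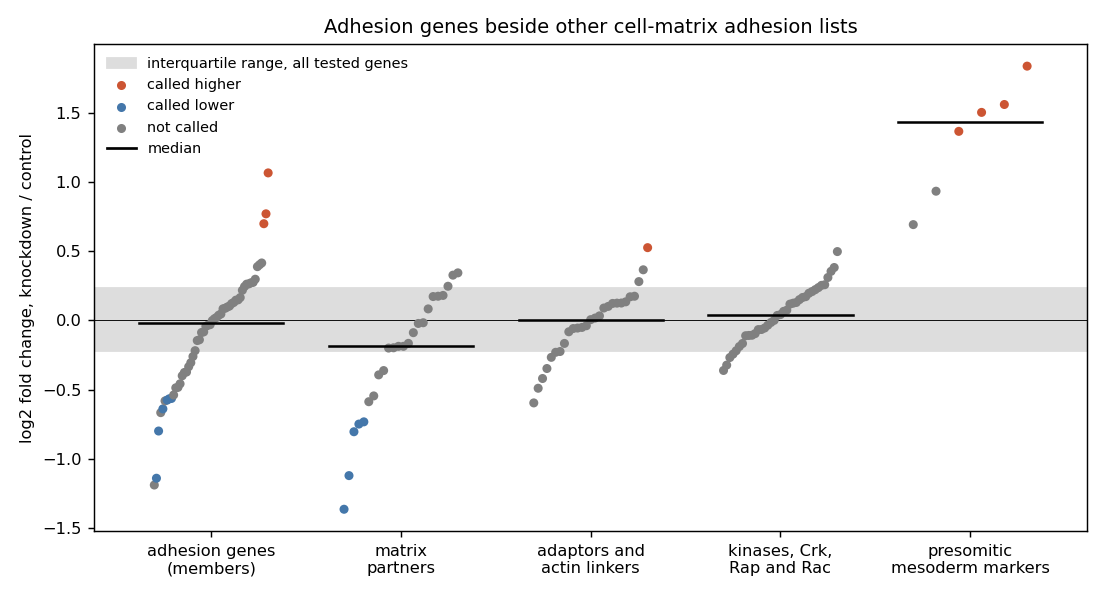
Log2 fold change (vertical axis, libraries labelled knockdown over control) of each tested gene in the integrin, laminin and focal adhesion group, in 3 lists of other adhesion genes and in the presomitic mesoderm markers, with the median of each as a bar and the interquartile range of all tested genes shaded. The matrix partners have a median of -0.19, the signalling list 0.042 and the presomitic mesoderm markers 1.43. The other marker lists are not shown, and their medians ran from -1.77 (lens) to 0.014 (epidermis and fin fold).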

How the data were processed

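A single table of raw read counts was deposited by the authors, with gene names as rows and the 6 libraries as columns. The submitters' processing notes name FastQC, cutadapt, STAR, DESeq2 and the build GRCz11, with no role or version. The counting tool, annotation and strand setting are not given in the sources used here, so no coordinates are printed. Per the labels' protocols, ribosomal RNA was depleted. Columns were matched through library names, and the description of control replicate 3 repeats another number, so titles were used. Of the names, 5998 have further rows with a suffix. Reads fitting identical copies may be lost or split, and a 0 there may be a failed assignment. No blank or total row was found.

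Counts were filtered with filterByExpr (minimum count 10, minimum total 15), scaled by TMM and tested over all 15607 kept genes with edgeR 4.0.16 in R 4.3.3 (glmQLFit, robust=TRUE; group as the only term). The standard error is the log2 fold change divided by the root of F, and intervals are 95%. CPM values use TMM-scaled library sizes. On simulated data for 15283 genes, the test recovered 66.7% of 195 genes given a log2 change of 1, and 98.6% of those above 5 log2 CPM, with 11 unchanged genes called. Within-group libraries differed beyond sampling noise (chi-square per degree of freedom 3.07 to 7.34), so none was taken as deposited again.

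The members and lists were chosen with earlier results of these data known. The genes described in full were rapgef1b, each called member, the pair with the highest CPM in each role, and a list of members with known roles; the other tested members are given to account for them. Member names matched RefSeq's GRCz12tu table in 63 of 64 cases, and it was used for gene order and overlap only. Further members overlap protein-coding genes there, among them *itga3b*, *itga7* and *fermt1*, and their reads may be affected. No sequence table was used here. Alternatives were DESeq2 1.42.0, limma-voom (3.58.1), DESeq2 size factors, library size alone, no filter, 10 counts in every library, summed rows of a name, the replicate block and leaving out each library. Figures were drawn with matplotlib 3.10.9.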

Additional observations from a re-analysis of the deposited data

How the results depend on the processing

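The count of called members was 9 in the reported fit and 8 to 11 under the alternatives that kept all 6 libraries. Leaving out 1 library gave between 1 (control replicate 2 left out) and 10 (knockdown replicate 2 left out), with 1 to 4 higher and 0 to 6 lower. Without control replicate 1 or 3 it was 3 or 4, and without knockdown replicate 3 it was 5. Over all genes, calls ranged from 219 to 914 without 1 library (higher 93 to 405, lower 122 to 509), against 669. Without a filter on low counts 1010 genes were called, 572 of them lower. Adhesion list calls ranged from 3 to 8, against 6. Fits with fewer libraries have less power. With library size alone, 59.3% of calls were higher, against 46.9%, and the median of all genes moved from 0.011 to 0.067. With that scaling *itgb1b* and *ptk2ab* turned to 0.022 and 0.054, and with rows summed *fn1a* turned to -0.071, none of them called. Over the alternatives the values of some uncalled genes changed sign, all of them without 1 library: *fn1a* (-0.24 to 0.40), *ilk* (-0.061 to 0.15), *tln1* (-0.070 to 0.11), *bcar1* (-0.0083 to 0.14), *lama5* (-0.037 to 0.18), *pxnb* (-0.0055 to 0.22) and *ptk2ab* (-0.16 to 0.13). The causes were not tested. The replicate block gave 773 calls and 11 called members, with *itga3a* and *lama2* added. Deviations of same-numbered libraries correlated at -0.014, 0.066 and 0.069 for numbers 1, 2 and 3, beside -0.098 to 0.052 for unlike numbers. With 3 libraries per group these small values cannot settle whether same-numbered libraries were paired. *rapgef1b* was not called in any alternative (0.16 to 0.35; block 0.23). Depth limits rows with few counts: 31 of 85 rows were not tested.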
